A study of Mus musculus with 18 samples.

Results

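The levels of 10 epithelial genes, keratins and loricrin, were followed in the pancreas and liver of mice that differ at Otub2, which encodes a deubiquitinase. The genes are the simple-epithelium keratins Krt7, Krt8, Krt18 and Krt19 and the squamous genes Krt4, Krt5, Krt13, Krt14, Krt6a and Lor. They were chosen by symbol, and 10 of 10 were found among the 55291 genes of each count table. The labels give 3 genotypes: WT, heterozygous knock-out mice (HET, OTUB2 +/-) and homozygous knock-out mice (HOM, OTUB2 -/-). Pancreas gave 3 WT libraries (1 female, 2 males), 5 HET (2 females, 3 males) and 3 HOM (3 males), and liver gave 2 WT and 5 HET libraries with no sex stated and no HOM. Strain, age, the deleted part of Otub2 and whether each sample is a separate animal are not given in the sources used here. If some samples share an animal, the p-values measure only the spread between samples, which may be technical. RNA came from whole organs and was read by a bulk form of MARS-seq, which counts the 3′ ends of transcripts, so fewer cells of a type and less RNA per cell cannot be told apart. Libraries are named by genotype and replicate number.

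Keratins form the intermediate filaments of epithelial cells, as obligate pairs of a type I (acidic) and a type II (basic) chain. KRT8 and KRT18 are the founding pair of simple, single-layered epithelia and the keratins of hepatocytes and acinar cells. KRT7 and KRT19 join them in ducts, including pancreatic and bile ducts, and KRT19 also in gastric glands. KRT5 and KRT14 pair in the basal layer of stratified epithelia such as skin and forestomach. KRT4 and KRT13 pair above that layer in wet squamous linings such as oesophagus and forestomach, KRT6A is a keratin of activated or appendage-associated keratinocytes, and Lor encodes loricrin, a main protein of the cornified envelope.

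The members lie on 3 chromosomes, and promoters of 4 are printed because they set a keratin of simple epithelium beside 3 squamous genes that held counts in the same libraries. By GENCODE mouse release M21 on mm10, the type II genes Krt7 (chr15:101411043-101430313, plus strand), Krt8 (chr15:101996698-102004482, minus), Krt4 (chr15:101918535-101924735, minus), Krt5 (chr15:101707070-101712898, minus) and Krt6a (chr15:101689910-101694307, minus) share chromosome 15 with the type I gene Krt18 (chr15:102028180-102032027, plus), with 23697 bases between Krt8 and Krt18. Krt19 (chr11:100140810-100148665), Krt13 (chr11:100117327-100121566) and Krt14 (chr11:100203162-100207548) lie on the minus strand of chromosome 11, and Lor (chr3:92080271-92083142, minus) on chromosome 3. The sequences are the 250 bases before the start site in RefSeq on GRCm38.p6, for 4 of the 7 members found in the promoter table: Krt18 at chr15:102027966-102028215 on the plus strand, Krt5 at chr15:101712906-101713155, Krt13 at chr11:100121567-100121816 and Lor at chr3:92083143-92083392, these 3 on the minus strand. They run 5′ to 3′ along the gene, with every match to a searched motif in capitals.
Krt18: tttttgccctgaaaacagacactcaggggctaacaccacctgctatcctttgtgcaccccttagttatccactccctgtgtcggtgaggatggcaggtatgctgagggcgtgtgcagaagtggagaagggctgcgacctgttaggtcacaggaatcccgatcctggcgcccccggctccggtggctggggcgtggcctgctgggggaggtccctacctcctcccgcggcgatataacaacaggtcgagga
Krt5: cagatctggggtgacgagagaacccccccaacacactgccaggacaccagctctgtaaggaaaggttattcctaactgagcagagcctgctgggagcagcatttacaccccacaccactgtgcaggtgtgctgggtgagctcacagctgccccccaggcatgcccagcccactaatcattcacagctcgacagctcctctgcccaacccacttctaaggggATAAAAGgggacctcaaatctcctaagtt
Krt13: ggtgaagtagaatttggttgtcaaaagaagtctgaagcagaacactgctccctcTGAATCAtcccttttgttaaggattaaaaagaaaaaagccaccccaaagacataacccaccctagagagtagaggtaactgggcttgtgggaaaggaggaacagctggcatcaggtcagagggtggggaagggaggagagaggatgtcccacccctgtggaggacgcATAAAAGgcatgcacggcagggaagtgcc
Lor: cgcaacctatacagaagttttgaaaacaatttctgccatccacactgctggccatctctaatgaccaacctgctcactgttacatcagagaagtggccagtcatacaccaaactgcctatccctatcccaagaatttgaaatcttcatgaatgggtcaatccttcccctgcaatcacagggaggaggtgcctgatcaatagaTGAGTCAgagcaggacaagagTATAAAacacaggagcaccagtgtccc
The motifs were searched on both strands: TATAAA (the TATA box, in 12.4% of 32851 promoters of this length), ATAAAAG (4.83%), TGANTCA (AP-1, 6.75%) and GGGCGG (the GC box, 32.7%). Krt5 and Krt13 both held ATAAAAG 29 to 23 bases before the start. Lor held TATAAA 27 to 22 bases before it and the AP-1 match TGAGTCA 48 to 42 bases before it. Krt13 held TGAATCA 196 to 190 bases before the start, and the printed Krt18 window held none of these letters. The matches did not divide the sets. Of the windows found but not printed, that of the simple keratin Krt7 held ATAAAAG 7 to 1 bases before its start, and GC boxes. Those of the simple keratin Krt8 and the squamous gene Krt14 held no match. The RefSeq starts used lie 1360 (Krt7) and 1518 bases (Krt14) from the GENCODE starts. The GC content was 60.4% with 12 CpG in Krt18, 56% with 2 in Krt5, 50.4% with 2 in Krt13 and 46.4% with 1 in Lor, against medians of 52.4% and 6 over all promoters. In the windows not printed it was 66% with 16 CpG in Krt7, 58% with 3 in Krt8 and 49.6% with 5 in Krt14. The matches describe the sequence only.

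The pancreas libraries were unlike each other before any genotype is considered. Totals ran from 49502 to 1326541 counts in pancreas and from 155201 to 1686234 in liver. HET 11 and HET 16 stood apart, with 66.5% of all pancreas counts and TMM scaling factors of 0.175 and 0.268 against 1.29 to 1.61 in the other 9. A list of glandular stomach genes (15 in the table, all with counts) summed to 226276 and 191304 CPM (counts per 1000000 counts of a library) in these 2 libraries, against 24.6 to 25595 in the others. Of 23 acinar enzyme genes only 11 had a count in any pancreas. The defining acinar genes Amy2a5, Cela2a, Prss2, Ctrb1 and Cel were at 0 in all 11. Other genes of the acinar list were abundant. The list summed to 165055 CPM in HET 11, 62854 in HET 16, 15838 in HET 9 and 15988 in HOM 19. Most of it was Clps (colipase) and Pla2g1b (pancreatic phospholipase). Of 7 islet hormone genes 5 had counts in pancreas, whereas Gcg (glucagon) and Pyy were at 0. The islet list summed to at most 756 CPM, in HET 10. Liver libraries held all 10 hepatocyte genes, at 108724 to 134522 CPM. Results that rest on HET 11 and HET 16 are given with and without them.

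**Figure D1:**
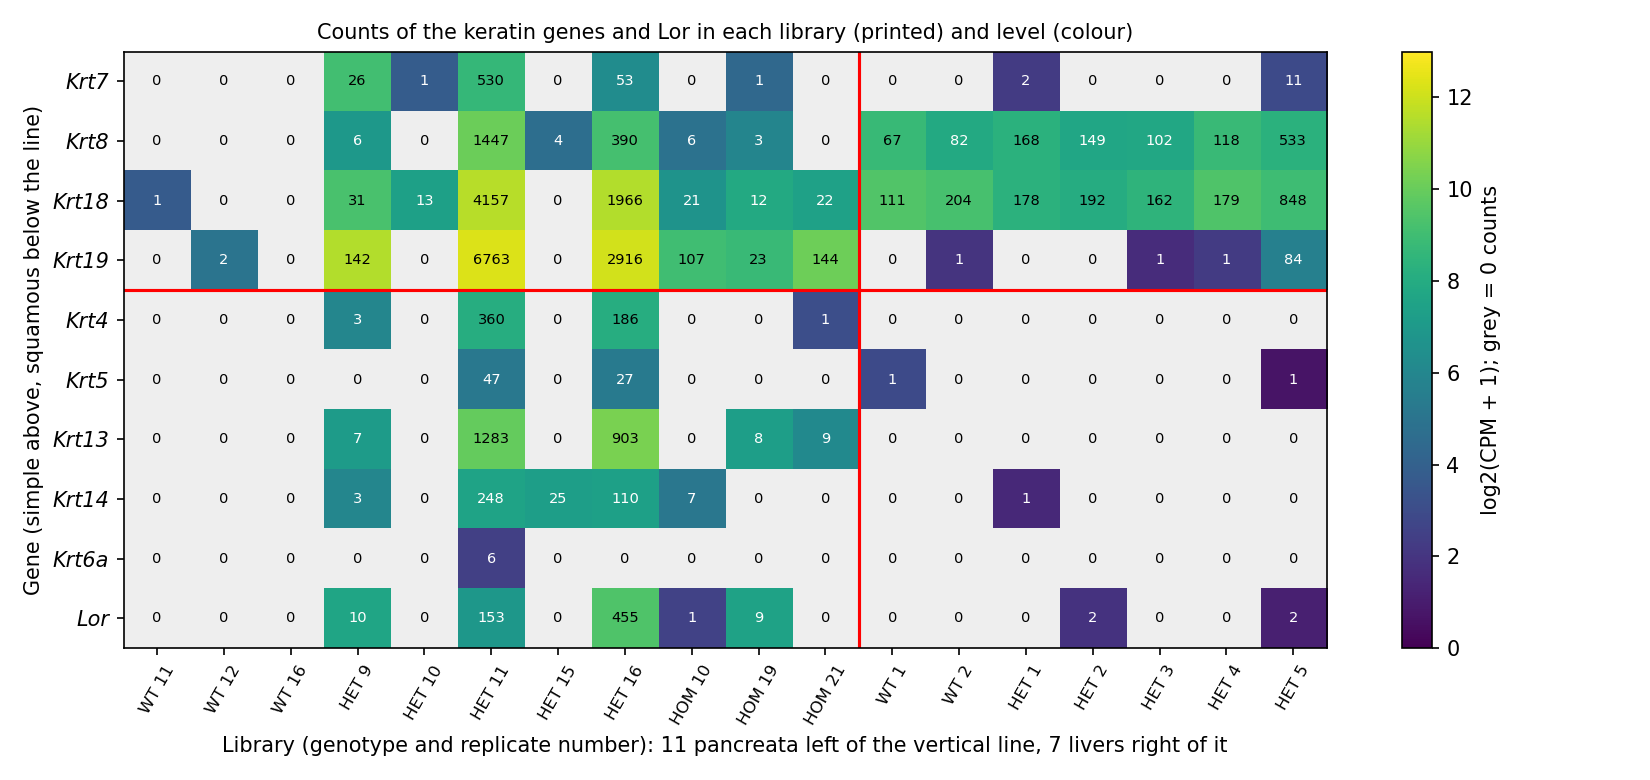
Counts (printed in each cell) and level as log2(CPM + 1) (colour, grey for 0 counts) of the 4 simple keratins (above the horizontal line) and the 6 squamous genes (below it) in 11 pancreas libraries (left of the vertical line) and 7 livers (right). The highest counts sit in HET 11 and HET 16, the 3 WT pancreata hold 3 counts in all, and livers hold Krt8 and Krt18 with 7 counts of the squamous genes.

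Krt19, the type I keratin of ducts and gastric glands, was the most counted member in pancreas, with 10097 counts. In WT it stood at 0, 31.5 and 0 CPM in WT 11, WT 12 and WT 16. In HET it stood at 2869 CPM in HET 9, 0 in HET 10, 5098 in HET 11, 0 in HET 15 and 4348 in HET 16. In HOM it stood at 522, 454 and 1118 CPM in HOM 10, HOM 19 and HOM 21. All 3 HOM libraries were above all 3 WT libraries, whereas the 5 HET libraries fell into 3 high ones and 2 at 0. It ranked 13th among the genes of HET 9 by counts, 14th in HET 11, 19th in HET 16 and 35th in HOM 21.

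Krt18, the type I partner of Krt8, had 6223 counts in pancreas. It stood at 12.3, 0 and 0 CPM in WT 11, WT 12 and WT 16. HET 9, HET 10, HET 11, HET 15 and HET 16 held 626, 166.5, 3134, 0 and 2932 CPM. The HOM libraries 10, 19 and 21 held 102.4, 236.9 and 170.9 CPM. As for Krt19, HOM did not overlap WT, and HET 15 alone among HET had none.

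Krt8, the type II partner, was lower than Krt18 wherever both were counted in pancreas. It was at 0 in all 3 WT libraries, at 121, 0, 1091, 24.6 and 582 CPM in HET 9, HET 10, HET 11, HET 15 and HET 16, and at 29.3, 59.2 and 0 CPM in HOM 10, HOM 19 and HOM 21. The ratio of Krt18 to Krt8 counts was 5.17 in HET 9, 2.87 in HET 11 and 5.04 in HET 16. It was 3.50 in HOM 10 and 4.00 in HOM 19, against 1.06 to 2.49 in the 7 livers. These are ratios of 3′ counts, which do not depend on transcript length. The pancreas ratios of HET 9 and HOM rest on 3 to 31 counts of each gene.

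Krt7, the type II keratin of ducts, was the least counted simple keratin in pancreas, with 611 counts. It was at 0 in WT and at 525, 12.8, 399.5, 0 and 79.0 CPM in HET 9, HET 10, HET 11, HET 15 and HET 16. In HOM it had 1 count, in HOM 19 (19.7 CPM). Its highest level was in HET 9, a library of 49502 counts, where 26 counts stood behind it. The antisense gene Gm671 overlaps Krt7, Gm36026 overlaps Krt8, and Krt5 and Krt6a also overlap antisense genes, so without a stated use of strand their counts cannot be told apart.

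Among the squamous genes, Krt13 of the suprabasal forestomach and oesophagus led, with 2210 counts. It was at 0 in WT, at 141, 0, 967, 0 and 1347 CPM in HET 9, HET 10, HET 11, HET 15 and HET 16, and at 0, 158 and 69.9 CPM in HOM 10, HOM 19 and HOM 21. Its partner Krt4 was at 0 in WT, at 60.6, 0, 271, 0 and 277 CPM in the same HET libraries, and at 1 count (7.77 CPM) in HOM 21 alone. In HET 11 the pair were the most counted of the squamous genes, in HET 16 Krt13 and Lor were, and neither Krt13 nor Krt4 had a count in HET 10 or HET 15.

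The basal pair was lower and less paired. Krt5 was counted in 2 pancreata only, at 35.4 CPM in HET 11 and 40.3 in HET 16. Krt14 stood at 60.6, 0, 187, 154 and 164 CPM in HET 9, HET 10, HET 11, HET 15 and HET 16, at 34.1 CPM in HOM 10, and at 0 in the other HOM and all WT libraries. HET 15 thus held 25 counts of Krt14 with 0 of Krt5, Krt4, Krt13 and Lor. Of 461 words of 40 bases in the last 500 bases of Krt14, 13.7% are also in Krt17, so some Krt14 counts are uncertain; how many was not measured. HET 15 held 0 counts of Krt17. Such words are also shared with other genes by Krt7 (4.99%) and by Krt18 (4.56%, with Gm5200), so the same limit holds for them. The remaining members shared 0. Krt6a had 6 counts, all in HET 11.

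Lor, of the cornified envelope, had 628 counts. It stood at 202, 0, 115, 0 and 679 CPM in HET 9, HET 10, HET 11, HET 15 and HET 16, at 4.88, 178 and 0 CPM in HOM 10, HOM 19 and HOM 21, and at 0 in WT. Lor was higher in HET 16 than in HET 11, as were Krt13, Krt4 and Krt5, whereas Krt14 and the 4 simple keratins were higher in HET 11.

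Simple keratins outnumbered the squamous genes in every pancreas with counts of both except HET 15. The 4 simple keratins took 89.9% of the counts of all 10 genes in HET 9 (Wilson interval at 95% confidence, 85.3 to 93.2, counting error only), 86.0% in HET 11 (85.5 to 86.6) and 76.0% in HET 16 (75.0 to 77.0). They took 94.4% in HOM 10 (89.3 to 97.1), 69.6% in HOM 19 (56.7 to 80.1) and 94.3% in HOM 21 (89.9 to 96.9), so libraries of the same genotype differed by more than counting error. In HET 15 they took 13.8% (5.50 to 30.6) of 29 counts, of which 25 were Krt14. WT 11, WT 12 and HET 10 held 1, 2 and 14 simple counts and 0 squamous ones, and WT 16 held 0 of both. The simple set made up 0.414% of all counts in HET 9, 0.972% in HET 11 and 0.794% in HET 16, and the squamous set 0.046%, 0.158% and 0.251%.

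**Figure D2:**
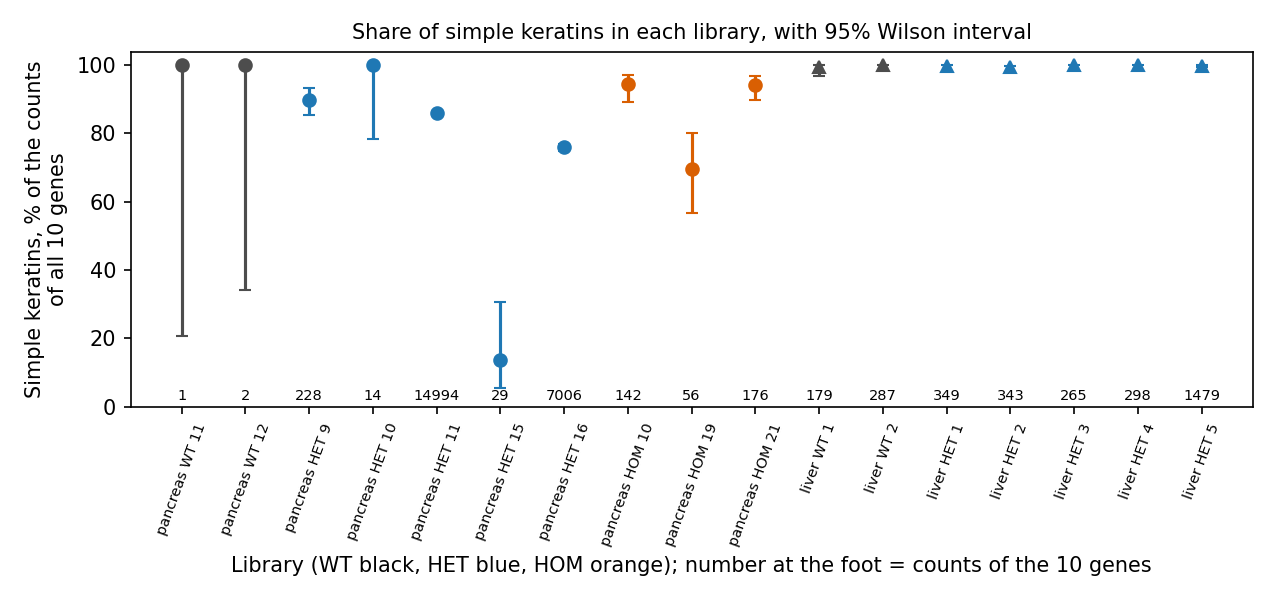
Share of the 4 simple keratins in the counts of all 10 genes (y axis, %) in each library with at least 1 such count, with 95% Wilson intervals; numbers at the foot are the counts behind each share. HET 15 lies lowest at 13.8%, HOM 19 and HET 16 at 69.6% and 76.0%, and all livers above 99%.

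As group means, the simple set summed to 14.6 ± 15.9 CPM in WT pancreas (SD, n = 3), 904 ± 339 in HOM (SD, n = 3) and, for HET, 4402 ± 4413 (SD, n = 5). The squamous set summed to 0 in WT, where 0 counts allow up to 9.00 CPM over the group (3 counts), to 151 ± 161 CPM in HOM (SD, n = 3) and to 941 ± 1072 in HET (SD, n = 5). Without HET 11 and HET 16, the HET means were 1448 ± 2333 and 206 ± 237 CPM (SD, n = 3). With library sizes scaled by TMM, the HET means were 17668 CPM (simple) and 3767 CPM (squamous), and the simple mean in HOM without Krt19 was 206 CPM. In HET the SD was as large as the mean, and with the 2 libraries left out the HET mean of the simple set rested on HET 9 (4141 CPM, against 179 in HET 10 and 24.6 in HET 15).

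**Figure D3:**
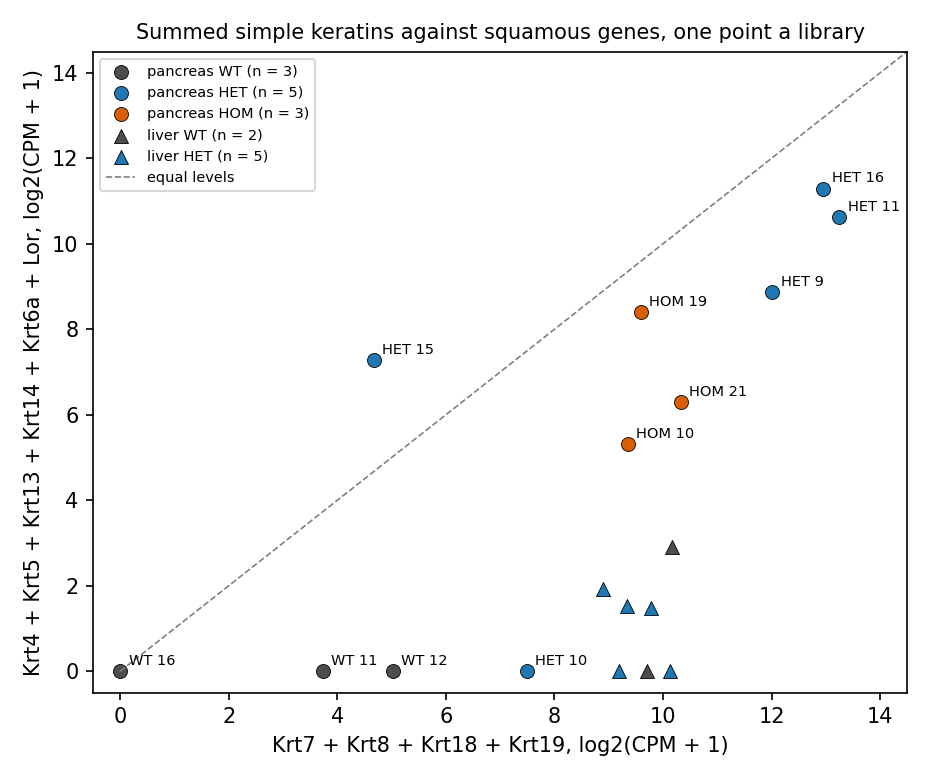
Summed level of the simple keratins (x axis) against the squamous genes (y axis), both as log2(CPM + 1), 1 point per library, circles for pancreas and triangles for liver, coloured by genotype; the dashed line marks equal levels. HET 15 alone lies above the line, HET 11 and HET 16 lie highest on both axes, and livers have simple keratins with almost no squamous counts.

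The first comparison asks how pancreas without Otub2 differs from WT. Krt19 was at 698 ± 366 CPM in HOM (SD, n = 3) and 10.5 ± 18.2 in WT (SD, n = 3), and Krt18 at 170 ± 67.2 and 4.11 ± 7.11 CPM. Pooled over libraries, HOM held 119 times the WT share of Krt19 (exact counting interval 32.6 to 985, on 2 WT counts) and 47.7 times that of Krt18 (8.20 to 1916, on 1 WT count). Both intervals hold counting error only and leave out the spread between libraries. Against the limit of 3 counts over the WT group, Krt13 was at least 8.43-fold higher, Lor at least 6.76-fold, Krt8 at least 3.28-fold and Krt14 at least 1.26-fold higher in HOM. Single libraries carry 2 of these: Krt14 had its 7 HOM counts in HOM 10, and Lor had 9 of 10 in HOM 19, without which its fitted log2 fold change was 1.49 in place of 5.18. In Krt19 and Krt18 every HOM library was above every WT library, which held for 309 of 3719 genes tested (8.31%); in the other members the groups overlapped at 0.

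None of these differences passed the test. Of the 10 members 7 passed the low-count filter in pancreas (Krt4, Krt5 and Krt6a did not), most of them through the HET libraries, and 0 of the 7 were called with edgeR's quasi-likelihood test in HOM against WT, as were 0.0% of 3719 genes. The adjusted p was 0.973 for Lor and 0.990 or 1 for Krt8, Krt18, Krt19, Krt13 and Krt14. Without HET 11 and HET 16, whose spread enters the fit, Krt19 passed: its log2 fold change was 6.97 ± 1.81 (SE, edgeR adjusted p = 0.0234), with 0.5% of 2598 genes called. DESeq2 gave no adjusted p for Krt13 and Lor, so it could not call them. It called 0 of the other members, and 0.134% of 3719 genes. Sex was a covariate, and all HOM were male.

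The second comparison asks how HET pancreas differs from WT. Group means were higher in HET for all 10 members. Krt6a, at 0.905 CPM in HET on 6 counts, gave no bound, since its mean was under the WT limit of 9.00 CPM (3 counts). In 0 of 10 members was every HET library above every WT library (0.753% of 3719 genes tested), because HET 10 or HET 15 was at 0. Against the 3-count limit, Krt13 was at least 54.5-fold, Krt8 at least 40.4-fold, Krt7 at least 22.6-fold, Lor at least 22.1-fold, Krt4 at least 13.5-fold, Krt14 at least 12.6-fold and Krt5 at least 1.68-fold higher in HET. Without HET 11 and HET 16 these bounds were 5.23 for Krt13, 5.40 for Krt8, 19.9 for Krt7, 7.48 for Lor, 2.24 for Krt4 and 7.94 for Krt14, and Krt5 was at 0 in both groups. The pooled HET over WT ratio was 898 for Krt18 (exact counting interval 161 to 35487) and 715 for Krt19 (198 to 5907), and 50.5 (8.61 to 2040) and 81.5 (22.2 to 680) without the 2 libraries. These intervals hold counting error only, not the spread between libraries. Without the 2 libraries, HET 9 held all HET counts of Krt19 (142), Lor (10), Krt13 (7) and Krt4 (3). It also held 26 of 27 of Krt7, 31 of 44 of Krt18 and 6 of 10 of Krt8, and HET 15 held 25 of 28 of Krt14.

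With edgeR 0 of 7 members were called in HET against WT, as were 0.0% of 3719 genes. The adjusted p of Lor, 0.0518, was the lowest value given to any gene, shared with others through the adjustment. It was 0.0734 for Krt7, 0.0739 for Krt8, 0.0770 for Krt13, 0.0836 for Krt14, 0.186 for Krt18 and 0.268 for Krt19. DESeq2 called Krt18 (adjusted p = 3.76e-04), Krt19 (0.00663), Krt8 (0.00873) and Krt14 (0.0390), where it called 4.01% of 3719 genes; it gave no adjusted p for Krt13 and Lor. Without the sex covariate edgeR called Lor (adjusted p = 0.0282), Krt7 (0.0305), Krt8 (0.0390) and Krt13 (0.0462), with 3.93% of 3719 genes. Without HET 15 it called Lor (0.0324), Krt8 (0.0458) and Krt13 (0.0463), with 3.03% of 3037 genes, and without HET 9 it called Lor (0.0466), with 1.17% of 3687. In the fit without a filter (0.0% of 20274 genes called) the adjusted p was 0.469 for Krt4 and 0.684 for Krt5. In the fit without HET 11 and HET 16, the log2 fold change of Krt18 was 5.00 ± 2.86 (SE, edgeR adjusted p = 0.938) and that of Krt19 0.87 ± 3.33 (0.995), with 0.346% of 2598 genes called. Sex is adjusted for there: Krt19 was at 0 in the male HET 10 and HET 15 and at 2869 CPM in the female HET 9.

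The third comparison sets HOM beside HET pancreas. The 7 members that passed the filter, most of them through HET libraries, had lower fitted levels in HOM, a direction that the filter favours. By mean CPM, Krt8 was 12.3-fold, Krt14 9.94-fold, Krt18 8.07-fold, Krt13 6.47-fold, Krt19 3.53-fold and Lor 3.27-fold lower in HOM. None was called with edgeR (0 of 7 members, 0.0% of 3719 genes), the lowest adjusted p being 0.342 for Lor (log2 fold change −4.49 ± 2.08, SE) and 0.388 for Krt7 (−4.95 ± 2.39). DESeq2 again gave no adjusted p for Krt13 and Lor. It called 0 of the other members, and 0.726% of the genes. In 0 of 10 members was every HOM library below every HET library (0.484% of 3719 genes). Without HET 11 and HET 16 Krt14 was still 6.28-fold lower in HOM by mean CPM, Krt8, Krt18, Krt19 and Lor were 1.65-, 1.55-, 1.37- and 1.11-fold lower, and Krt13 was 1.61-fold higher. Pooled over libraries, Krt7 was 103 times lower in HOM with them and 35.8 times lower without them, on 1 HOM count, and Krt4 92.3 and 3.97 times lower, also on 1 HOM count. The fitted log2 fold changes without them turned to 0.38 for Krt18 and 6.11 for Krt19, neither called, with 0.269% of 2598 genes called. Unlike the means, the fit adjusts for sex, and all HOM are male. Krt19 was at 0 in the male HET libraries left, HET 10 and HET 15, and at 2869 CPM in the female HET 9. The part of sex in the turn was not tested.

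Other genes of stratified epithelia also had counts in HET 11 and HET 16, some of them in other libraries too. Of 54 keratin symbols 30 had counts in pancreas, 23831 in all, of which 22020 were of members. Krt78, a keratin of stratified epithelium, had 330 counts in HET 11, 237 in HET 16 and 0 elsewhere. Krt1, of differentiating epidermis, had 108 and 260, Krt17 148 and 27, and Krt79 95 and 47, with at most 2 counts of any of these 3 in another library. The epidermal keratins Krt2 and Krt77 and the oral keratin Krt76 were at 0 in all pancreata. Among 31 cornified envelope genes, 21 had counts, led by Krtdap and Cnfn. Krtdap stood at 949 CPM in HET 9, 1357 in HET 10, 1007 in HET 11 and 2140 in HET 16, at 0 in HET 15 and WT, and at 140 to 770 in HOM. Cnfn stood at 1027 CPM in HET 11, 2732 in HET 16 and at most 237 elsewhere. The list summed to 0 to 473 CPM in WT, 6.15 to 6508 in HET and 234 to 1007 in HOM. Of 19 squamous junction genes and regulators, Lgals7 (5415 and 3766 counts in HET 11 and HET 16) and Sfn (1428 and 564) led. Trp63, the master regulator of stratified epithelium, had 0 counts in HET 11 and HET 16 but was counted in other libraries. The list of 19 summed to 221 to 477 CPM in WT, 563 to 8798 in HET and 699 to 1480 in HOM.

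Some duct genes were high in the libraries with many simple keratin counts and others were near 0 there. The duct list summed to 61.6 to 1213 CPM in WT, 43.0 to 5080 in HET and 146 to 1026 in HOM, with 13 of 15 genes counted and Cldn4 and Onecut1 at 0. Its leading genes Tff2 (3863 counts in HET 11, 693 in HET 16), Elf3 (1235 and 785) and Muc1 (1190 and 811) are also expressed in gastric mucosa. Cftr, the chloride channel of pancreatic ducts, had 1 count in all, in HET 11. Glandular stomach genes were at 24.6 to 90.2 CPM in WT, 36.9 to 226276 in HET and 5095 to 16383 in HOM, and acinar genes at 154 to 1158, 105 to 165055 and 4210 to 15988 CPM. The libraries with the least of both lists among HET, HET 10 and HET 15, were also those with the fewest keratin counts. The part of these tissues in the keratin levels was not tested. Of these lists 0 genes were called in any pancreas comparison with edgeR, as were 0.0% of 3719 genes: 9 glandular stomach, 3 acinar, 3 duct, 3 cornified envelope and 5 squamous junction genes passed the filter. In HET against WT, DESeq2 called 3 of the glandular stomach, 1 of the acinar and 1 of the cornified envelope genes, all higher in HET, beside 4.01% of 3719 genes. It called 0 duct and squamous junction genes there, and 0 genes of these lists in the comparisons with HOM.

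**Figure D4:**
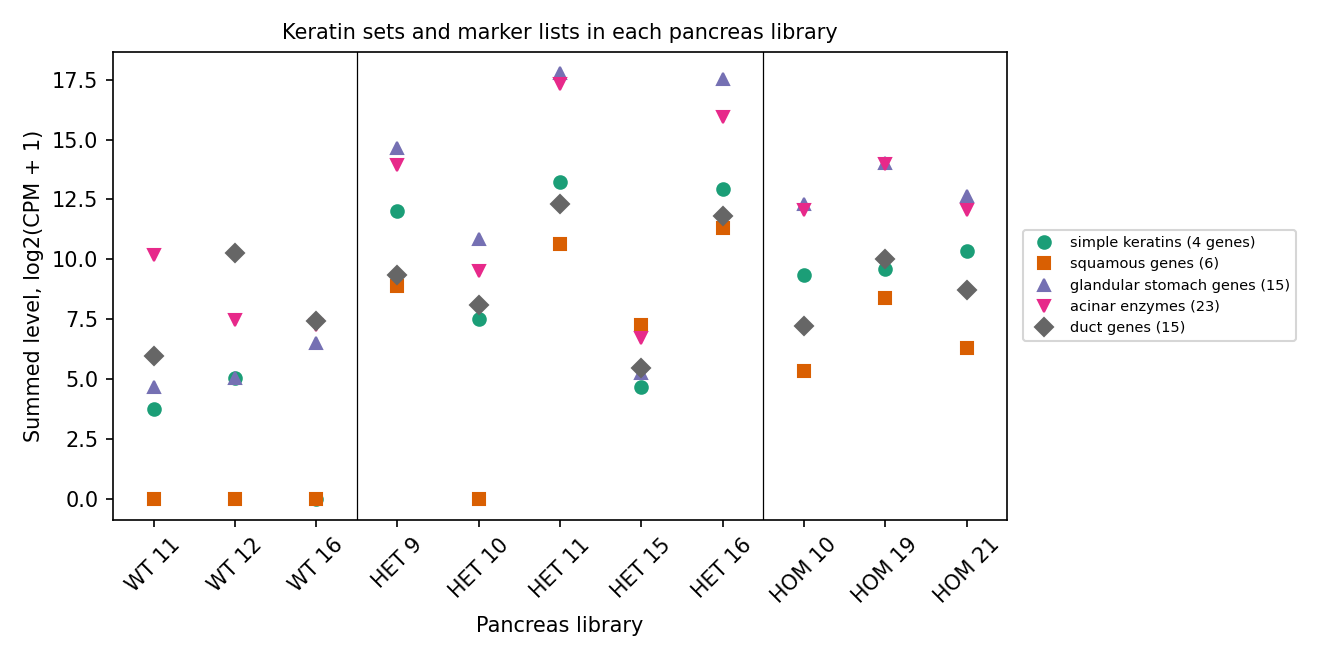
Summed level, as log2(CPM + 1), of the simple keratins, the squamous genes and 3 marker lists (glandular stomach, acinar enzymes, duct) in each pancreas library, with vertical lines between WT, HET and HOM. All 5 sums are highest in HET 11 and HET 16; in WT the squamous sum is 0 and the simple sum at most 31.5 CPM, below the acinar and duct sums.

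Pooled, the WT pancreata held more counts of other keratins than of the members, through WT 11 and WT 16; WT 12 held 2 member counts and 0 others. The 3 WT member counts stood beside 99 counts of non-member keratins, whereas HET held 21653 and 1574 and HOM 364 and 138. Krt12, the keratin of corneal epithelium, had 33 counts in WT 11, 18 in WT 16, 23 in HOM 21, 18 in HET 11, 13 in HET 9 and at most 2 in the other 6. Krt82, a hair cuticle keratin, had 35 counts in WT 16, 58 in HET 15, 22 in HOM 10, 63 in HOM 21 and 0 in the other 7, HET 11 and HET 16 included. The 12 other hair keratins listed summed to at most 40.4 CPM.

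Similar profiles across the 11 pancreata were ranked by Pearson r of log2(CPM + 1), among 4915 genes with counts in at least 4 of them. Krt19 was closest to Muc5ac (r = 0.948), a gastric surface mucin, then to Lgals7 (0.937) and Atp5k (0.936). Krt18 was closest to Mucl3 (0.962), then to Clps (0.957), colipase, and Rps14 (0.956). Krt13 was closest to Smarcd2 (0.998) and Elf3 (0.997), Krt8 to Mon1a (0.980) and Bckdha (0.980), Krt7 to Flad1 (0.937), Krt4 to Mybbp1a (0.997), Krt14 to Derl2 (0.977) and Lor to Cyp2s1 (0.975). Among members, r was 0.867 between Krt4 and Krt13, 0.678 between Krt8 and Krt18 and 0.448 between Krt13 and Krt14. Zeros in the same libraries and the depth of HET 11 and HET 16 are shared by all these points, so the values only describe the order.

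Liver held mainly the hepatocyte pair. Krt8 stood at 432 and 239 CPM in WT 1 and WT 2 and at 313, 207, 224, 446 and 316 CPM in HET 1 to HET 5. Krt18 stood at 715 and 595 CPM in WT and at 331, 266, 355, 676 and 503 CPM in HET. In both genes the groups overlapped, since HET 4 lay above WT 2; every HET library was below every WT library for 11.1% of genes tested. The group means were 336 ± 136 CPM in WT (SD, n = 2) and 301 ± 95.2 in HET (SD, n = 5) for Krt8, and 655 ± 84.7 and 426 ± 164 for Krt18. Krt8 and Krt18 were the 2 of 10 members that passed the filter, and neither was called in HET against WT with edgeR, where 0.0% of 4803 genes were called. The log2 fold change was −0.08 ± 0.34 (SE, adjusted p = 0.957) for Krt8 and −0.55 ± 0.32 (0.575) for Krt18. DESeq2 called neither, and 0.208% of genes.

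Krt19 was low in liver except in HET 5. It stood at 0 and 2.92 CPM in WT and at 0, 0, 2.19, 3.78 and 49.8 CPM in HET 1 to HET 5, the last on 84 counts. Krt7 had 11 counts in HET 5, 2 in HET 1 and 0 in the other 5. In the fit without a filter, the log2 fold change of Krt19 was 2.90 ± 1.34 (SE, edgeR adjusted p = 0.378, with 0.307% of 18552 genes called). Duct genes stood at 314 CPM in HET 5, against 58.0 to 136 in the other livers, with 12 of 15 counted and Cftr, Cldn4 and Ehf at 0. HET 5 held 97 counts of Muc1, 81 of Spp1 and 64 of Cdh1. HET 5 also held 94 counts of the pancreatic protease Ctrb1, which had 0 in the other 6 livers. Only 2 of 23 acinar genes had counts in HET 5. Clps and Pla2g1b, the leading acinar genes in pancreas, were at 0 in all livers, and Ctrb1 was at 0 in every pancreas. Any link of Ctrb1 to the Krt19 level was not tested. The squamous genes had 7 counts over all livers: Krt5 2, Krt14 1 and Lor 4, and Krt4, Krt13 and Krt6a were at 0. Their sum was 3.22 ± 4.56 CPM in WT (SD, n = 2) and 1.28 ± 1.23 in HET (SD, n = 5), beside 992 ± 219 and 741 ± 261 CPM of simple keratins. In liver profiles over 7 libraries (9188 candidate genes), Krt8 was closest to Fitm1 (r = 0.981) and Krt18 to Ppp4r1l-ps (0.984).

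**Figure D5:**
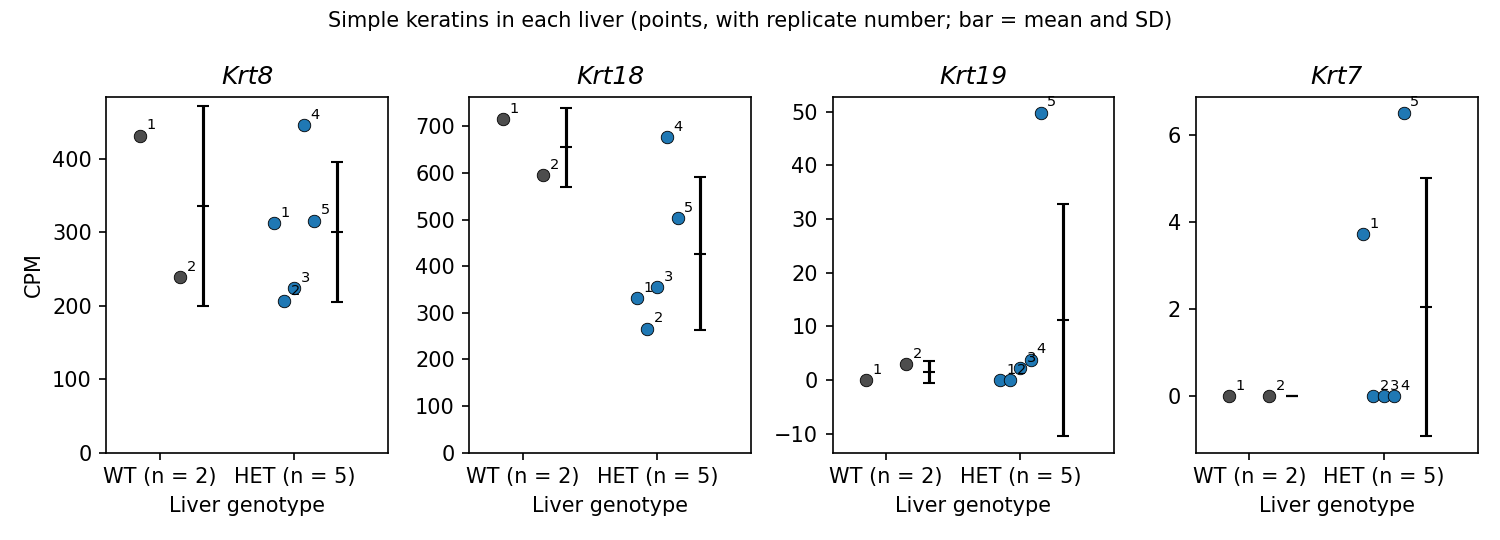
Level in CPM of Krt8, Krt18, Krt19 and Krt7 in each liver (points, numbered by replicate), with mean and SD per genotype (WT n = 2, HET n = 5). Krt8 and Krt18 overlap between WT and HET, and Krt19 is at 49.8 CPM in HET 5 and at most 3.78 in the other livers.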

How the data were processed

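RNA of pancreas and liver was extracted with TRI reagent and sequenced by bulk MARS-seq, per the labels' protocols. Cutadapt and STAR were used with mouse build mm10, per the submitters' processing notes; the sources used here give no version, annotation, strand use or barcode collapsing. The authors deposited whole-number counts per gene, 1 table per tissue, which the file names call corrected without saying for what. All 18 libraries were matched to a label, 0 columns were left over and 0 pairs of libraries were identical.

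CPM were computed from the deposited counts. Tests used edgeR 4.0.16 in R 4.3.3 (limma 3.58.1): filterByExpr by group, TMM scaling, robust quasi-likelihood fits and Benjamini-Hochberg adjustment over all genes tested, threshold 0.05. The 11 pancreata were fitted together with genotype and sex, the 7 livers with genotype. Members that did not pass the filter were taken from a fit over genes with at least 1 count. A sum over members was not tested. Counting floors are 3 counts, and intervals are at 95% confidence. Scripts were tested on simulated data.

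All members were named, with up to 5 other keratins of at least 10 counts per tissue, up to 4 genes of each other list by mean CPM, and up to 3 most similar profiles per member. Genes named outside that rule (Krt12, Trp63, Cftr, Ctrb1 and markers at 0) were chosen after their values were seen. The members and lists were chosen with earlier results of these data known. Alternatives were DESeq2 1.42.0, other scalings and filters, no sex covariate, a replicate block and left-out libraries. DESeq2 size factors shifted the median over all genes (log2) by −0.16 for HOM against WT and by −0.12 for HOM against HET. Total counts shifted it by −0.18 for HOM against WT, by −0.41 for HET against WT and by 0.30 for HOM against HET.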

Additional observations from a re-analysis of the deposited data

Results flagged for a closer look

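For 4 of 21 members or set sums within HET pancreas or HET liver (n = 5 each), 1 library stood apart by Dixon's gap at the 95% level. These items share libraries and many zeros, and the sums contain the members, so no rate of flags by chance is given. Krt19 was at 49.8 CPM in liver HET 5, on 84 counts, against at most 3.78 CPM in the other 4 HET livers. The other 3 rested on few counts: Krt6a at 4.52 CPM in pancreas HET 11 (6 counts, 0 in the other 4 HET pancreata), Krt14 at 1.86 CPM in liver HET 1 (1 count) and Krt5 at 0.593 CPM in liver HET 5 (1 count). Each of these 3 had counts in 1 library of its group only, so the gap equals the range and a flag was certain.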

How the results depend on the processing

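Of the member log2 fold changes under an alternative, 341 kept their direction and their side of the threshold, 18 passed it newly and 14 reversed; Krt13 and Lor have no DESeq2 adjusted p and some blocked fits gave no estimate. Leaving out each library, Krt19 in HET against WT ran from −0.0435 (without HET 16) to 14.0. Without HET 16 4 members reversed in HOM against HET: over the left-out libraries Krt18 ran from −6.07 to 0.0712, Krt19 from −4.73 to 6.58, Krt13 from −6.22 to 5.02 and Lor from −8.37 to 4.46. Without HET 11 and HET 16 Krt18 (0.38) and Krt19 (6.11) reversed. These fits adjust for sex, and without HET 16 the male HET libraries are HET 10 and HET 15, both at 0 for Krt19, Krt13 and Lor. In liver Krt8 reversed with no filter (0.0826) and ran from −0.461 to 0.49 over the left-out libraries. The cause was not tested.

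Genes called in HOM against WT numbered 0, but 5 with DESeq2, 13 without HET 11 and HET 16, and 0 to 4 when leaving out each library. In HET against WT they numbered 0, but 149 with DESeq2, 22 with total counts, 146 with no sex covariate, 9 without HET 11 and HET 16, and 0 to 92 leaving out each library (43 without HET 9, 92 without HET 15). In HOM against HET they numbered 0, but 27 with DESeq2 and 7 without the 2 libraries, and 0 when leaving out each library. In liver they numbered 0, but 10 with DESeq2, 57 with no filter, 6 with a mean of at least 10 CPM, and 0 to 6 leaving out each library. At an unadjusted p under 0.05 edgeR held 497 genes in liver, 185 for HOM against WT, 517 for HET against WT and 410 for HOM against HET.

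Whether replicate numbers shared between groups pair the samples is not known. The correlation of same-numbered deviations from the group means ran from −0.028 to 0.049 over 5 pairs. So few pairs cannot exclude pairing, and the deviations of the 2 WT livers mirror each other. With the number as a replicate block, 41 genes were called in liver, 149 in HET against WT pancreas, 18 for HOM against WT and 0 for HOM against HET, and 4 members reversed in HOM against HET: Krt8 (4.91), Krt19 (9.03), Krt14 (5.13) and Lor (2.55). The block also called Krt19 in HOM against WT (edgeR adjusted p = 0.00307) and Krt8 (0.00666), Krt18 (0.00109), Krt19 (1.44e-04) and Krt13 (0.00395) in HET against WT. This fit left out sex, and in pancreas only same-numbered libraries inform it: HET 11 with WT 11, HET 16 with WT 16, and HET 10 with HOM 10. Its HET against WT calls therefore rest on HET 11 and HET 16. Its HOM against WT call rests on these pairs too, joined through HET 10 and HOM 10. A blocked fit without HET 11 and HET 16 was not run.

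Summed levels scaled by TMM library sizes gave HET means of 17668 CPM (simple) and 3767 CPM (squamous), and the HOM simple mean without Krt19 was 206 CPM. Leaving out each library, the simple mean ran from 6.16 to 21.9 CPM in WT, 3071 to 5496 in HET and 712 to 1030 in HOM pancreas, and 838 to 1147 in WT and 644 to 807 in HET liver. The squamous mean ran from 0 to 0, 550 to 1176 and 58.3 to 207 CPM in pancreas, and 0 to 6.44 and 0.910 to 1.60 in liver.

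At 49502 to 205103 counts in the WT and HOM pancreata, HET 9, HET 10 and HET 15, the floor of 3 counts is worth 14.6 to 60.6 CPM, so low members could not be resolved there.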
